A study of Rattus norvegicus with 4 samples.

Results

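The chemokine and chemokine receptor genes described here are the rows of the deposited table whose symbol starts with Ccl, Cxcl, Ccr, Cxcr or Ackr followed by a digit, or with Cx3c or Xcl. This gave 55 of 32623 genes, of which 20 were CC ligands, 12 CXC ligands, 2 ligands of the other classes (Cx3cl1 and Xcl1), 18 conventional receptors and 3 atypical receptors. Chemokines are small secreted proteins that direct the movement of leukocytes and some other cells, and they act through membrane receptors coupled to inhibitory G proteins. Their names follow the spacing of the conserved cysteines near the amino terminus (the CC, CXC, CX3C and C classes), and the atypical receptors of the Ackr group bind chemokines and remove them without signalling through G proteins. Fibroblast-like cells such as those of tendon are known as sources of ligands for neutrophils and monocytes, and several of these ligand genes are known targets of NF-kB, the transcription factor family activated by inflammatory cytokines.

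Counts came from tendon stem/progenitor cells (TSPCs) of the rat, fibroblast-like cells of tendon tissue. There were 2 libraries of cells treated with U0126, which blocks MEK, the kinase pair upstream of ERK, and 2 libraries of cells given DMSO, the solvent control. The comparison asks which transcripts differ when MEK is inhibited. The labels call the libraries of each group biological replicates. The sources used here do not give strain, sex, age, dose, exposure time or the animals or cultures behind each library, so a p-value here covers only the spread among these 4 libraries, part of which may be technical.

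Total counts were 38671289 and 36888913 in the U0126 libraries and 38890310 and 42785190 in the controls, and 14023 genes had enough counts to be tested. The libraries held transcripts of fibroblast and tendon genes. Col1a1 (collagen type I) was at 20526 and 23943 CPM with U0126 and 21073 and 23767 CPM in controls. The tendon transcription factor gene Scx was at 20.5 and 20.4 CPM with U0126 and 12.2 and 11.8 CPM in controls, whereas tenomodulin (Tnmd), a marker of mature tendon cells, was at or under 0.115 CPM in all 4 libraries. CPM are counts scaled to a common library size by TMM factors. Mitochondrial genes took 5.64% and 4.82% of counts with U0126 and 3.48% and 2.98% in controls, and the part of this difference in the results was not tested. The pan-leukocyte gene Ptprc had 0 counts in all 4 libraries, as did the B cell genes Ms4a1, Cd79a and Cd79b. The 11 measured macrophage and myeloid markers summed to 12.5 and 11.2 CPM with U0126 and 15.8 and 15.5 CPM in controls, most of it Cd14, and Ptprc, Cd163, Aif1 and Tyrobp of that list were at 0 throughout. In bulk RNA, fewer cells of a type and less RNA per cell cannot be told apart.

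Of the 55 genes, 22 had no count in any library, 10 had counts but too few to be tested, and 23 were tested (18 ligands, 3 conventional receptors and 2 atypical receptors). With U0126, 4 of the 23 rose, 10 fell and 9 did not pass the test. By the same test 19.9% of all 14023 tested genes were called, 8.41% as higher and 11.5% as lower. The test was edgeR's quasi-likelihood F test with Benjamini-Hochberg adjustment over all tested genes, at an adjusted p of 0.05. With library totals alone in place of TMM, 12 of the 23 passed, beside 20% of all tested genes, 2 rising and 10 falling, beside 6.78% and 13.2%. The median log2 fold change of the 23 was -0.68, beside 0.02 for all tested genes. Only 14 of the 23 reached the count minimum in both groups. Another 5 (Ccl22, Ccl3, Ccl5, Cxcl10 and Cxcl2) reached it through the controls alone and 4 (Ccl17, Ccl27, Ccr10 and Cxcr3) through the U0126 libraries alone, so that their presence among the tested genes depends on the difference itself. The groups did not overlap in 20 of the 23, beside 62.8% of all tested genes. Both U0126 libraries were above both controls in 8, beside 31.8%, and below both in 12, beside 31%. An exact permutation test of 1 gene, 2 libraries against 2, cannot go below p = 0.333.

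**Figure D1:**
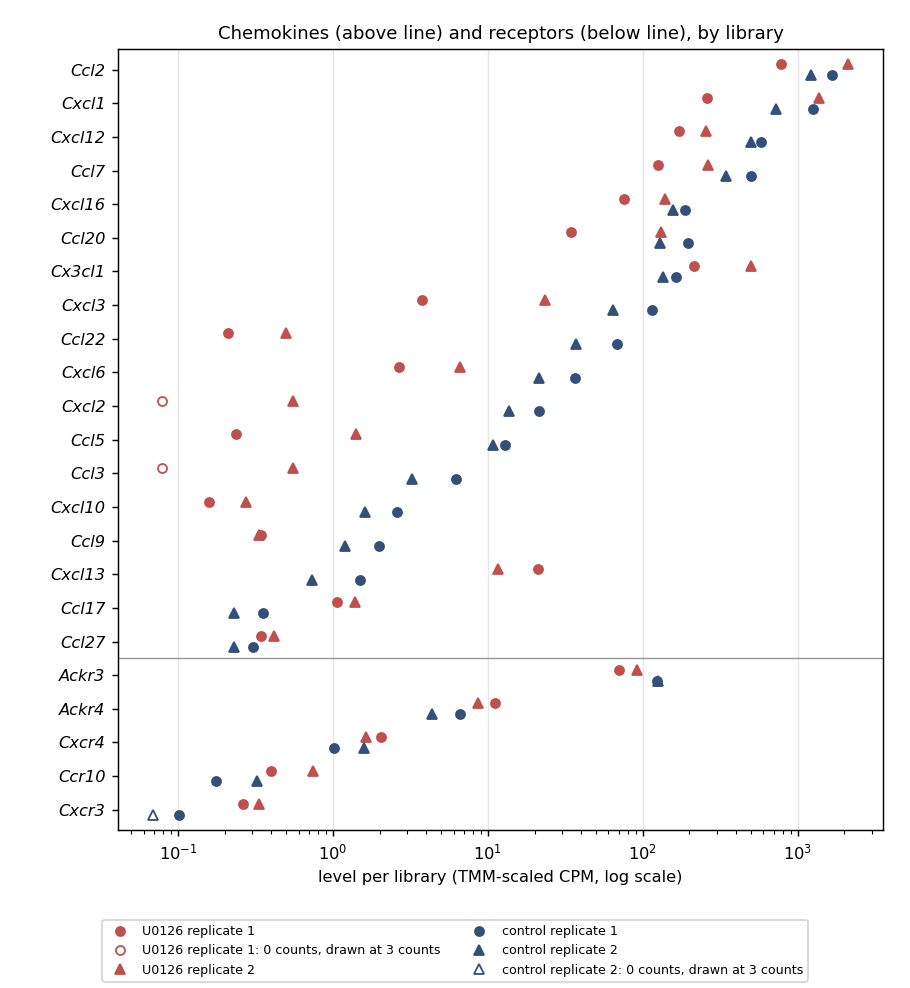
Level of each tested chemokine (above the line, ordered by control mean) and receptor (below the line) in each library, in TMM-scaled CPM on a log axis, with U0126 libraries in red and control libraries in blue, and circles for replicate 1 and triangles for replicate 2. Open symbols mark a library with 0 counts, drawn at the level that 3 counts would give. Ccl2, the most abundant member, spans 777 to 2109 CPM, and U0126 replicate 1 lies left of U0126 replicate 2 for most ligands.

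Transcripts of the whole family made up 0.174% and 0.483% of all counts in the U0126 libraries and 0.504% and 0.354% in the controls. U0126 replicate 1 was the lowest of the 4 libraries, and U0126 replicate 2 lay between the controls. The monocyte attractant gene Ccl2 alone held 43.9% and 42.8% of the family's counts with U0126 and 33.8% and 34.7% in controls. Per unit of transcript length, in the deposited TPM, the order of mean control levels was Ccl2, Cxcl1, Ccl7, Ccl20, Cxcl16, Cxcl12, Cxcl3 and Ackr3. Ccl2 averaged 2988 ± 1971 TPM with U0126 and 3094 ± 624 TPM in controls (SD, n = 2 each). Cxcl16 and Cxcl12, at 181 ± 17.4 and 177 ± 14.2 TPM in controls, did not differ beyond their spread.

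The neutrophil attractants Cxcl1, Cxcl2, Cxcl3 and Cxcl6 signal through Cxcr2, and their genes lie together within 131 kb of chromosome 14 (bases 18731378 to 18862407, rn6). Of these genes, Cxcl2, Cxcl3 and Cxcl6 fell with U0126, and Cxcl1, the most abundant of them, did not pass. Cxcl2 had 0 and 0.552 CPM with U0126 and 21.4 and 13.6 CPM in controls. It had 0 counts in U0126 replicate 1 and 20 in U0126 replicate 2, against 850 and 593 in the controls, and the groups were far apart. Its log2 fold change was -6.00 ± 0.68 (SE; adjusted p = 0.00152), a call that DESeq2 did not make (adjusted p = 0.0590, in a range of 8.13e-06 to 0.0590 over all alternatives). The log2 fold change was -7.66 under limma-voom and -4.98 without U0126 replicate 1, and without U0126 replicate 2 no U0126 count was left. Cxcl6 was at 2.66 and 6.57 CPM with U0126 and at 36.3 and 21.4 CPM in controls. It fell 6.26-fold (log2 fold change -2.65 ± 0.42 SE, adjusted p = 0.00560), with both U0126 libraries below both controls, and its log2 fold change was -3.44 without U0126 replicate 2 and -2.13 without U0126 replicate 1. Cxcl3 was at 3.77 and 23.5 CPM with U0126 and at 115 and 64.6 CPM in controls. Here too the groups did not overlap, but the U0126 libraries differed 6.24-fold from each other. The fall was 6.59-fold (log2 fold change -2.72 ± 0.69 SE, adjusted p = 0.0346) and its call was lost under DESeq2 and without control replicate 1 or 2 (adjusted p up to 0.163, down to 2.42e-05 in other alternatives). The log2 fold change of Cxcl3 was -4.58 without U0126 replicate 2 and -1.93 without U0126 replicate 1. Cxcl1 was at 258 and 1381 CPM with U0126 and at 1252 and 727 CPM in controls. U0126 replicate 1 was the lowest of the 4 libraries and U0126 replicate 2 the highest, and the test did not pass (log2 fold change -0.27 ± 0.65 SE, adjusted p = 0.808).

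The promoters of these neighbours are shown because the genes share a match to the NF-kB motif just upstream of their start while their measured changes differ. RefSeq promoter windows (GRCr8, 250 bases before to 50 after the gene's start, 5′ to 3′ on the gene's strand) were found by symbol for 42 of the 55 genes, 18 of them tested, and Cxcl3 was not among these. Capitals mark matches to the NF-kB motif on either strand.
Cxcl1 chr14:17479272-17479571, minus strand: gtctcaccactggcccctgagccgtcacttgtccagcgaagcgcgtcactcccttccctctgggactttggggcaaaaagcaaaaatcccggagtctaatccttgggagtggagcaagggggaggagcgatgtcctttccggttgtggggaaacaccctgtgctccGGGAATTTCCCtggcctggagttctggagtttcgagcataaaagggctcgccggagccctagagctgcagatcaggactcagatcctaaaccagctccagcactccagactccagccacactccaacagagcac
Cxcl2 chr14:17467206-17467505, minus strand: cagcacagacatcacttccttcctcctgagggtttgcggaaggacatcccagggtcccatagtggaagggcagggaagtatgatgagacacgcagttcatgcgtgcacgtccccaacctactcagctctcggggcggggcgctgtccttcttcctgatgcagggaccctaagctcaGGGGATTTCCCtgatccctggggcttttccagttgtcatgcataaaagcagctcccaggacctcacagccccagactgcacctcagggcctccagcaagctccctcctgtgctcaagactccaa
Cxcl6 chr14:17596368-17596667, minus strand: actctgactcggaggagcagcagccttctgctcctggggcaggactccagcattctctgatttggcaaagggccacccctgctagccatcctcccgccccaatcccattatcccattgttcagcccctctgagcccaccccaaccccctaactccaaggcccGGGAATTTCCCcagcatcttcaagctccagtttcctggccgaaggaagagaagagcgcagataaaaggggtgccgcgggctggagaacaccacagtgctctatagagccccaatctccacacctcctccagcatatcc
In each of these windows the capitals hold 2 matches that overlap and start 1 base apart. The first begins 84 bases before the start of Cxcl1, 74 before that of Cxcl2 and 88 before that of Cxcl6 (written -84, -74 and -88 in base positions relative to the start). The capitals of Cxcl1 and Cxcl6 are the same 11 letters. Of the 18 windows of tested members, 6 held an NF-kB match, beside 4.18% of all 33469 rat promoter windows and 5.08% of the windows of 10706 tested genes. The other matches were in Cxcl10, Ccl20 and Ccl9, shown with 10 bases on either side.
Cxcl10: gcaggaaagaGGGAAATTCCaagctcatgg
Ccl20: aatcaatgggGGAAAACCCCgggtgagaac
Ccl9: ttgaaagtttGGAAAGCCCCaagtcacctt
By call, the NF-kB match was in 4 of 7 windows of genes that fell, 0 of 4 of genes that rose and 2 of 7 of genes that did not pass. Ccl3, Ccl5 and Cxcl3, which fell, and Ccl2 and Ccr10, which did not pass, had no window. The same split was not made over all tested genes, and a link between match and direction of change was not tested. Of the 4, Cxcl2 and Cxcl10 reached the count minimum through the controls alone. Cxcl2 and Cxcl6 are among the neighbours above, so the 4 are not separate observations. The AP-1 motif, searched as TGANTCA with N for any base, was in 2 of the 18 windows (Ccl7 and Cxcl10). The shares were 7.33% of all windows and 4.9% of those of tested genes. The match read TGATTCA in Ccl7 and TGAGTCA in Cxcl10. The ETS core CCGGAA was in 3 (Ccl27, Cxcl1 and Cxcl16), against 15% of all windows and 26.8% of those of tested genes. The core of the interferon-stimulated response element was in 1 (Cxcl10), against 3.92% and 2.89%. All motifs were searched on both strands. A match describes letters in the window and not binding.

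The monocyte attractants Ccl2 and Ccl7, ligands of Ccr2, are neighbours on chromosome 10 and were among the most abundant members. Ccl2 was at 777 and 2109 CPM with U0126 and at 1672 and 1209 CPM in controls. The U0126 libraries lay on opposite sides of the controls, and the fitted difference was close to 0 (log2 fold change 0.00 ± 0.41 SE, adjusted p = 0.997). Ccl7 was at 125 and 265 CPM with U0126 and at 496 and 342 CPM in controls. Both U0126 libraries were below both controls, yet the test did not pass (log2 fold change -1.10 ± 0.33 SE, adjusted p = 0.0601). It passed, as lower, under limma-voom and without either U0126 library, in a range of 1.65e-04 to 0.290 over all alternatives. Ccl20, which attracts Ccr6-bearing T and dendritic cells, was at 34.3 and 130.4 CPM with U0126 and at 195 and 129 CPM in controls, with a log2 fold change of -0.98 ± 0.53 (SE; adjusted p = 0.245). U0126 replicate 2 was level with control replicate 2, and only U0126 replicate 1 stood below both controls.

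Ccl22 and Ccl17, the ligands of Ccr4 that draw regulatory and helper T cells, changed in opposite directions, Ccl22 falling and Ccl17 rising with U0126. With Cx3cl1 between them they occupy 61.9 kb of chromosome 19 (10619220 to 10681145, rn6), all on the minus strand. Ccl22 had 8 and 18 counts in the U0126 libraries against 2718 and 1600 in the controls, or 0.211 and 0.497 CPM with U0126 and 68.5 and 36.8 CPM in controls. The gene fell 149-fold (log2 fold change -7.21 ± 0.45 SE, adjusted p = 1.75e-04) and passed in all 11 alternatives, at -7.95 without U0126 replicate 2 and -6.71 without U0126 replicate 1. Ccl17 was at 1.05 and 1.38 CPM with U0126 and at 0.353 and 0.230 CPM in controls. It rose 4.16-fold at a low level (log2 fold change 2.06 ± 0.48 SE, adjusted p = 0.0252), with no overlap between groups. The Ccl17 call was lost with the replicate block, without either control and without U0126 replicate 2 (adjusted p up to 0.213, down to 0.0142 in other alternatives). Cx3cl1, or fractalkine, a membrane-anchored ligand of Cx3cr1 that is shed by proteases, was at 214 and 496 CPM with U0126 and at 165 and 135 CPM in controls. Both U0126 libraries were higher, and the gene rose 2.37-fold (log2 fold change 1.24 ± 0.34 SE, adjusted p = 0.0442). This call was lost in 6 of 11 alternatives, among them DESeq2, limma-voom, library totals alone and leaving out either control, in a range of 7.39e-06 to 0.236. The log2 fold change of Cx3cl1 was 0.51 without U0126 replicate 2 and 1.73 without U0126 replicate 1.

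In a second group of CC ligand genes on chromosome 10 (70739800 to 70886355, rn6), all 3 tested members, Ccl5, Ccl3 and Ccl9, fell. Ccl5 and Ccl3 attract T cells and monocytes through receptors that include Ccr1, and Ccl9 is known from the mouse as a ligand of Ccr1. Ccl5 was at 0.237 and 1.41 CPM with U0126 and at 12.8 and 10.8 CPM in controls, a fall of 14.4-fold (log2 fold change -3.85 ± 0.54 SE, adjusted p = 0.00351). It passed in all 11 alternatives, but at -5.63 without U0126 replicate 2 and -3.06 without U0126 replicate 1. Ccl3 was at 0 and 0.552 CPM with U0126 and at 6.20 and 3.22 CPM in controls. Both genes were lower in each U0126 library than in either control, and Ccl3 had 0 counts in U0126 replicate 1 and 20 in U0126 replicate 2. The log2 fold change of Ccl3 was -4.10 ± 0.85 (SE; adjusted p = 0.0161), lost under DESeq2 and without control replicate 1 (adjusted p up to 0.257, down to 1.64e-04). It was -5.72 under limma-voom and -3.08 without U0126 replicate 1, and without U0126 replicate 2 no U0126 count was left. Ccl9 was at 0.343 and 0.331 CPM with U0126 and at 1.97 and 1.19 CPM in controls, which was 4.64-fold lower (adjusted p = 0.0151, lost without either control at up to 0.187, down to 0.00462). Its U0126 libraries were nearly level, unlike those of Ccl5 and Ccl3. Also in this stretch, Ccl4 and Ccl6 were not tested. Ccl4 had 0 counts in both U0126 libraries and 6 and 8 counts in the controls, and Ccl6 had no count. With 3 counts allowed over the U0126 libraries together and the control counts taken as exact, Ccl4 was at least 4.16-fold lower.

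The interferon-inducible ligand gene Cxcl10, which draws Cxcr3-bearing T cells, was low and fell. It had 0.158 and 0.276 CPM with U0126 and 2.57 and 1.61 CPM in controls, a fall of 9.52-fold (log2 fold change -3.25 ± 0.48 SE, adjusted p = 0.00440, lost without control replicate 1 at 0.0623 and down to 1.17e-05 in other alternatives). Its neighbours and fellow Cxcr3 ligands were at or near 0, with 6 counts of Cxcl11 in 1 control and none elsewhere, and none of Cxcl9 in any library.

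Among ligands known for constitutive or lymphoid roles, Cxcl12 fell and Cxcl13 rose. Cxcl12 (chromosome 4, 149261044 to 149273891, rn6), the stromal ligand of Cxcr4 and Ackr3, was at 172 and 254 CPM with U0126 and at 577 and 496 CPM in controls. The groups were well separated, and the fall was 2.52-fold (log2 fold change -1.33 ± 0.18 SE, adjusted p = 0.00331), passing in all 11 alternatives. Cxcl13 (chromosome 14, 15253125 to 15258207, rn6), the B cell attractant that acts on Cxcr5, was at 21.0 and 11.5 CPM with U0126 and at 1.49 and 0.735 CPM in controls. Both U0126 libraries were higher, and unlike most ligands U0126 replicate 1 was the higher of the pair. The gene rose 14.7-fold (log2 fold change 3.88 ± 0.40 SE, adjusted p = 0.00104) and passed in all 11 alternatives. Cxcl16, a transmembrane ligand of Cxcr6, was at 75.3 and 139 CPM with U0126 and at 187 and 157 CPM in controls, below without overlap but short of the threshold (log2 fold change -0.68 ± 0.26 SE, adjusted p = 0.110). Of the 11 alternatives it passed in 1, without U0126 replicate 2 (adjusted p = 7.96e-05, and up to 0.396 in others). Ccl27, a skin-associated ligand of Ccr10, was at or under 0.414 CPM in every library (adjusted p = 0.575).

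**Figure D2:**
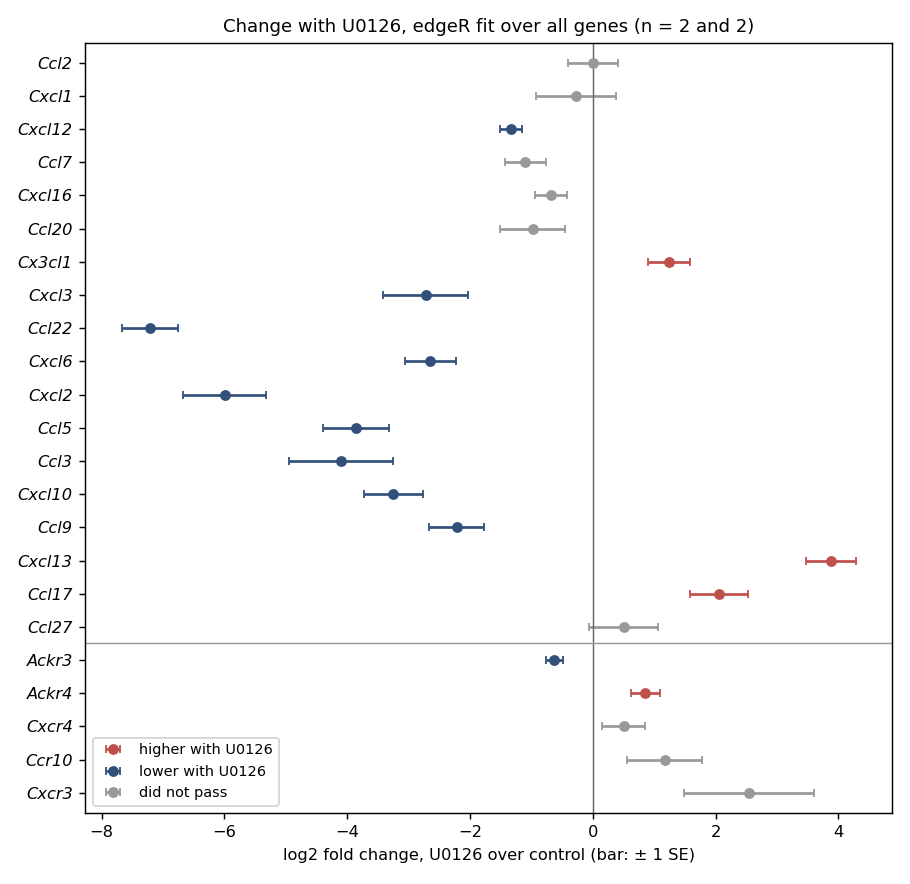
Log2 fold change of each tested member, U0126 over control, from the edgeR fit over all 14023 tested genes, with bars of 1 SE and n = 2 libraries per group; colours mark genes that rose, fell or did not pass. The values run from -7.21 for Ccl22 to 3.88 for Cxcl13, and the 2 most abundant ligands, Ccl2 and Cxcl1, sit near 0 with bars that cross it.

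Few receptor transcripts were counted in these cells apart from 2 atypical receptors. Of 18 conventional receptor genes, 13 had no count in any library, including Ccr1, Ccr2, Ccr4, Ccr6, Cxcr1, Cxcr2, Cxcr6 and Cx3cr1. These bind Ccl2, Ccl20, Ccl22, Cxcl1, Cxcl16 and Cx3cl1, among other ligands. A count of 0 allows up to between 0.0689 and 0.0829 CPM in a single library, for counting error only. Ackr3 (chromosome 9, 97355924 to 97367445, rn6), which binds and internalises Cxcl12, was the most abundant receptor at 70.1 and 91.6 CPM with U0126 and 123 and 125.7 CPM in controls. Both U0126 libraries were lower, by 1.54-fold (log2 fold change -0.62 ± 0.13 SE, adjusted p = 0.0180), although the call was lost without either control (adjusted p up to 0.132, down to 1.28e-04). Ackr4, a scavenger of Ccl19, Ccl21 and Ccl25, was at 11.1 and 8.64 CPM with U0126 and at 6.56 and 4.39 CPM in controls. It was 1.81-fold higher (log2 fold change 0.86 ± 0.24 SE, adjusted p = 0.0444), and the call was lost with library totals alone, without either control and without U0126 replicate 1 (adjusted p up to 0.291, down to 0.00755). The Ackr4 gene lies wholly within Acad11 on the other strand, and since the strand setting of the counting is not given, reads of the 2 genes cannot be told apart. The third atypical receptor of the table, Ackr2, had no count.

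Of the 3 conventional receptors tested, none passed, and all 3 had both U0126 libraries above both controls, as did 31.8% of all tested genes. Cxcr4, the signalling receptor of Cxcl12, was at 2.06 and 1.63 CPM with U0126 and at 1.01 and 1.59 CPM in controls (adjusted p = 0.364). Ccr10 was at 0.395 and 0.746 CPM with U0126 and at 0.177 and 0.322 CPM in controls (adjusted p = 0.228). Cxcr3 had 10 and 12 counts with U0126 and 4 and 0 in controls (adjusted p = 0.143). Cxcr5, the receptor of Cxcl13, had too few counts for a test, with 0 in both U0126 libraries and 9 and 8 in the controls. It was at least 5.05-fold lower under the same allowance of 3 counts over the U0126 libraries, with the control counts taken as exact. Ccr3 had 2 counts in 1 U0126 library. The ligand Xcl1, also not tested, had 0 counts in both U0126 libraries and 23 and 6 in the controls. On the same terms Xcl1 was at least 8.62-fold lower, which leaves out the counting error and spread of the controls. Ccl1 had 0 and 4 counts with U0126 and 10 and 4 in controls, and Ccl19 had 0 and 12 counts with U0126 and 6 and 0 in controls. Ccl11, Cxcl14 and Cxcl17 had at most 6 counts in any library.

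The replicate libraries differed from each other more in these genes than in the table at large. Over the 23 tested members the median absolute log2 ratio between replicates (on log2 CPM with a prior count of 2) was 0.88 in the U0126 group and 0.63 in the control group, beside 0.20 and 0.12 over all 14023 tested genes. Among U0126 libraries 11 of the 23 differed at least 2-fold, beside 5.08% of all tested genes, and among controls 1 of 23, beside 2.80%. For the 18 members with a mean of at least 1 CPM the medians were 1.15 with U0126 and 0.61 in controls, beside 0.18 and 0.11 for the 12376 genes at that level, so the members' spread exceeded that of the table with the rarest transcripts left out. In 15 of 23 members the U0126 replicates were farther apart than the controls, a share of 65.2%, beside 63.4% of all tested genes.

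The differences ran in a common direction within each group. In 16 of the 18 tested ligands U0126 replicate 1 was below U0126 replicate 2, the exceptions being Cxcl13 and Ccl9, while in 18 of 18 control replicate 1 was above control replicate 2. Over all tested genes the shares were 49.1% and 51%. Cxcl1 was 5.35-fold higher in U0126 replicate 2 than in replicate 1 (95% exact interval 5.23 to 5.46, counting error only) and 1.72-fold higher in control replicate 1 than in control replicate 2 (1.70 to 1.75). The ratio for Ccl2 was 2.71 (2.68 to 2.75) between U0126 libraries and 1.38 (1.37 to 1.40) between controls. Ccl20 differed 3.81-fold (3.58 to 4.05) and Ccl5 5.94-fold (2.89 to 13.7) between the U0126 libraries. The counting interval included 1 for 8 of 23 members between the U0126 libraries and for 5 of 23 between the controls. Of the 5 tested receptors, 3 were lower in U0126 replicate 1, and none differed 2-fold between U0126 libraries. The source of the replicate difference was not tested.

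**Figure D3:**
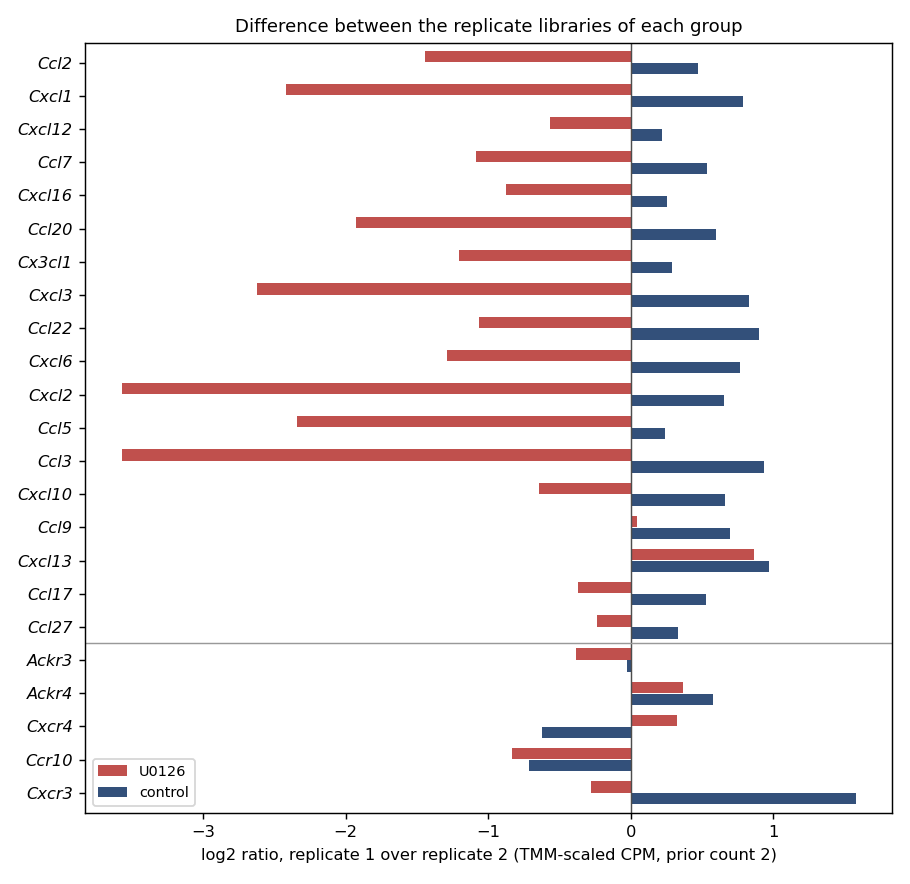
Log2 ratio of replicate 1 over replicate 2 for each tested member, in the U0126 group (red, upper bar of each pair) and the control group (blue, lower bar), on TMM-scaled CPM with a prior count of 2. For 16 of 18 ligands the U0126 bar points left and for all 18 the control bar points right; the longest U0126 bars, Cxcl2 and Ccl3, belong to genes with 0 counts in replicate 1.

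Each U0126 library was then set alone against both controls, with its spread assumed to be that of the controls. With U0126 replicate 1 alone 18 members passed, beside 32.1% of all genes tested, 15 of them lower and 3 higher, beside 17.3% and 14.8%. With U0126 replicate 2 alone 15 passed, beside 22.8%, 11 of them lower and 4 higher, beside 13.2% and 9.64%. All 10 genes that fell in the fit of 4 libraries were lower with either U0126 library, and Ccl7 joined them in both. Each of these fits reuses both controls and 1 U0126 library of the fit of 4, so the repeat is no independent support. Ccl2, Ccl20, Cxcl1 and Cxcl16 were called lower with U0126 replicate 1 and not with U0126 replicate 2. Ccl2 passed in opposite directions, at a log2 fold change of -0.90 ± 0.17 with U0126 replicate 1 (SE; adjusted p = 0.00376) and 0.55 ± 0.16 with U0126 replicate 2 (adjusted p = 0.0362). Cxcl1 was at -1.95 (adjusted p = 6.16e-04) with replicate 1 and 0.48 (adjusted p = 0.182) with replicate 2. Of the genes that rose, Cxcl13 and Cx3cl1 passed with either U0126 library, Ackr4 with replicate 1 and Ccl17 with replicate 2. Setting both U0126 libraries against 1 control left fewer calls. Without control replicate 1, 6 members passed, 1 higher and 5 lower, beside 6.32%, 2.12% and 4.2% of all genes tested. Without control replicate 2, 8 passed, 1 higher and 7 lower, beside 6.24%, 2.05% and 4.19%. Cxcl13 was the higher one both times, and Ccl22, Ccl5, Cxcl12, Cxcl2 and Cxcl6 were lower both times. With the replicate number as a block 12 members passed, 2 higher and 10 lower, beside 16.9%, 6.83% and 10.1%.

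**Figure D4:**
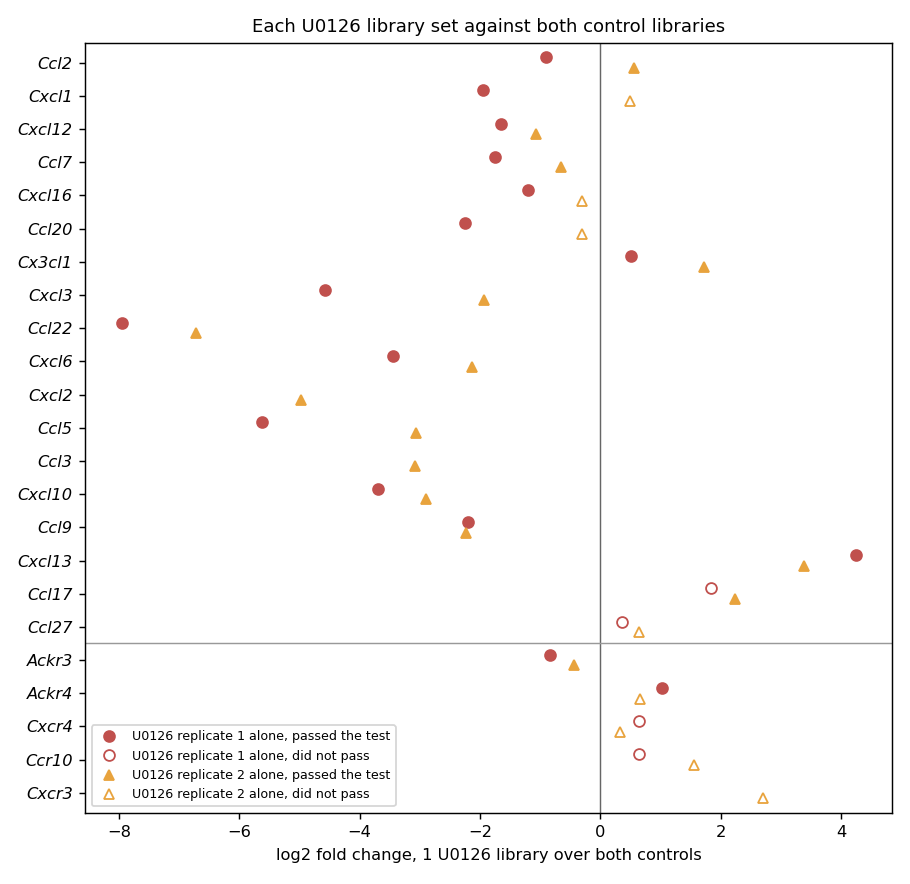
Log2 fold change of each tested member when 1 U0126 library is set against both controls: red circles for U0126 replicate 1, orange triangles for U0126 replicate 2, filled where the adjusted p was under 0.05. No point is drawn for Cxcl2 and Ccl3 in replicate 1, which had 0 counts, or for Cxcr3 in replicate 1, which was not tested there; Ccl2 has filled points on both sides of 0.

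Related genes were read from lists by function. Of 22 inflammatory inducers and NF-kB genes tested, 3 fell (Il1a, Il1b and Ptgs2), 1 rose (Vcam1) and 18 did not pass, with a median log2 fold change of 0.01. Il1b, the cytokine interleukin 1 beta, was at 0.474 and 2.43 CPM with U0126 and at 12.9 and 8.55 CPM in controls (adjusted p = 0.0135). In 20 of these 22 genes U0126 replicate 1 was below U0126 replicate 2, as in the ligands, among them Nfkbia, the NF-kB inhibitor gene, at 51.1 and 127 CPM with U0126 against 93.5 and 80.3 CPM in controls. Of 12 interferon response genes tested, 4 fell (Mx2, Oas1a, Irf7 and Isg15) and 7 did not pass.

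Of 14 tested genes of chemokine receptor signalling, 6 fell, 2 rose and 6 did not pass, with a median log2 fold change of -0.29. The smallest adjusted p were those of the phosphoinositide 3-kinase subunit Pik3cd (log2 fold change -1.68, adjusted p = 0.00134) and of the receptor kinase Grk6 (log2 fold change -0.78, adjusted p = 0.00323), both lower, while Pik3r5, another kinase subunit, was lower at a log2 fold change of -3.22 (adjusted p = 0.00428). The G protein gene Gnai2, through which chemokine receptors signal, was at 676 and 698 CPM with U0126 and at 729 and 701 CPM in controls (adjusted p = 0.688). Of 10 tested genes for cleavage, shedding and surface binding of chemokines, 2 rose, 3 fell and 5 did not pass. Mmp2, a protease that can cleave chemokines, was at 2234 and 1943 CPM with U0126 and at 737 and 677 CPM in controls (adjusted p = 2.48e-04), and Adam10 and Adam17, which shed Cx3cl1 and Cxcl16, did not pass (adjusted p = 0.166 and 0.253). None of 6 tested relatives outside the name rule passed, among them the chemerin receptor gene Cmklr1, and the platelet chemokine genes Pf4 and Ppbp had at most 3 counts in any library.

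Markers of cells that carry chemokine receptors were at low levels. T and NK cell markers summed to 0.343 and 0.442 CPM with U0126 and 1.08 and 1.13 CPM in controls, with Cd3e, Cd3d and Nkg7 at 0. Neutrophil markers summed to 1.56 and 1.60 CPM with U0126 and 3.56 and 3.26 CPM in controls, most of it Camp, which fell, with S100a8, S100a9 and Mpo at 0. Dendritic cell markers summed to 2.45 and 3.18 CPM with U0126 and 4.56 and 5.77 CPM in controls, and Cd74 among them fell, at 0.158 and 0.994 CPM with U0126 and 2.67 and 4.30 CPM in controls. Endothelial markers summed to at most 0.791 CPM in any library. The single macrophage marker of 5 tested that fell was Adgre1, at 0.0527 and 0 CPM with U0126 and 0.580 and 0.368 CPM in controls (adjusted p = 0.0315). Pericyte markers, which a tendon culture could also hold, were not all low. They summed to 342 and 446 CPM with U0126 and 501 and 585 CPM in controls, most of it Cspg4. Rgs5 of that list was low, at 0.237 and 0.166 CPM with U0126 and 0.151 and 0.459 CPM in controls, and was not tested. Of 4 tested pericyte markers, Abcc9 and Kcnj8 rose, Mcam fell and Cspg4 did not pass. Erythroid markers had at most 0.0791 CPM. Of 11 tested tendon and fibroblast markers 6 rose, 2 fell and 3 did not pass. The part of these differences in the chemokine results was not tested.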

How the data were processed

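RNA sequencing of 4 rat TSPC libraries was analysed from 1 deposited table. RNA was extracted with Trizol, per the labels' protocols. The submitters' processing notes list rn6 as the genome build. The sources used here do not give the aligner, the counter or its strand setting. The counts deposited by the authors are whole numbers per gene, not normalized. The TPM values deposited by the authors were used to compare levels between genes, and the FPKM values deposited by the authors were not used. Each column was assigned to its library by its name, and 0 stayed unassigned.

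Counts were filtered with filterByExpr (minimum count 10, minimum total 15), scaled by TMM and compared by edgeR's two-sided quasi-likelihood F test, with Benjamini-Hochberg adjustment over all 14023 tested genes (R 4.3.3, edgeR 4.0.16, limma 3.58.1, DESeq2 1.42.0). Every adjusted p in the text is edgeR's unless another tool is named. Standard errors were derived from the F statistic as |log2 fold change|/sqrt(F). Replicate ratios carry exact Clopper-Pearson counting intervals. Floors use 3 counts. Reads of related genes such as Cxcl1, Cxcl2 and Cxcl3 may have been shared in the counting, which was not tested. The U0126 libraries held 9801 and 50006 counts of Cxcl1 and 0 and 20 of Cxcl2. Every tested member was named, and genes outside the name rule came from fixed lists. The members and lists were chosen with earlier results of these data known. The fit was tested on simulated data. Alternatives were RLE factors, library totals alone, other filters, DESeq2, limma-voom, a replicate block and leaving out each library. Values of a few single genes of the table are not reported here.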

Additional observations from a re-analysis of the deposited data

How the results depend on the processing

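With 2 libraries a group, single libraries decided much of the count. Leaving out 1 library in turn, the members called ranged from 6 to 18, those higher from 1 to 4 and those lower from 5 to 15, and genes called in the whole table from 899 to 4644. The members called numbered 6 without control replicate 1 and 8 without control replicate 2, against 14 with all 4 libraries. Over the whole table, 2792 genes were called with all 4 libraries, 4644 when U0126 replicate 2 was dropped, and 913 or 899 when control replicate 1 or 2 was. With library totals alone in place of TMM, 2 members were higher and 10 lower, against 4 and 10. With the replicate block 12 members were called, 2 higher and 10 lower, and 2371 genes in all. The choice of test also moved the count. DESeq2 called 10 members, 3 higher and 7 lower, and 2937 genes in all. Under limma-voom 14 members were called, 3 higher and 11 lower, and 2843 genes in all. Nothing in the labels says that the replicate numbers pair cultures, so they were not read as pairs. Deviations of same-numbered libraries correlated at -0.03 over 14023 genes, which does not settle whether they were paired.

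Ccl2 changed sign, with a log2 fold change of -0.0016 with RLE factors, -0.0517 with library totals alone, -0.0023 with no filter, -0.0015 with DESeq2, -0.15 with limma-voom, -0.15 with the replicate block and -0.21 without control replicate 2. Dropping a U0126 library gave Ccl2 its extremes, -0.90 without replicate 2 and 0.55 without replicate 1. Cxcl1 changed sign to 0.17 without control replicate 1 and 0.48 without U0126 replicate 1, and was at -1.95 without U0126 replicate 2. The members called in all 11 alternatives were Ccl22, Ccl5, Cxcl12, Cxcl13 and Cxcl6. The share of all tested genes called in every alternative was not counted. Ccl22 and Ccl5 reached the count minimum through the controls alone.

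The median replicate spread of the U0126 group was 0.89 with RLE factors, 1.07 with a filter of 1 CPM in 2 libraries, 1.02 with no filter and 0.89 with a prior count of 0.5, against 0.88. That of the control group was 0.62 with library totals alone, 0.61, 0.59 and 0.65 under the last 3 of these settings, against 0.63. The 5 tested members under 1 CPM rest on few counts.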
